A study of Mus musculus with 4 samples.

Results

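The 4 Hox clusters are runs of homeobox genes on separate chromosomes, and they were followed here probe by probe in mouse embryonic fibroblasts (MEFs) with and without Stat3. The members were all array probes whose annotated gene symbol is Hoxa, Hoxb, Hoxc or Hoxd with a paralog number from 1 to 13. They came to 52 probes of 37 genes, out of 46632 probes on the array, and no detection filter was applied. The Hoxa cluster gave 17 probes of 9 genes, Hoxb 13 probes of 10 genes, Hoxc 12 probes of 9 genes and Hoxd 10 probes of 9 genes.

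Hox genes encode homeodomain transcription factors that give cells their position along the head-to-tail axis and, for the posterior members, along the limb. Genes at the low-numbered end of a cluster are used in the hindbrain and neck, and genes at the high-numbered end are used in the lumbar, tail and distal limb regions, so the order on the chromosome follows the order in the body. Fibroblasts are known to keep the Hox pattern of the body site they came from through culture, which makes the set of active Hox genes a record of position.

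Total RNA of cultured MEFs, embryonic connective-tissue cells labelled as a MEF cell line of strain C57BL/6, was hybridised to Illumina bead arrays. The genotypes were wild type (WT) and STAT3KO, a knockout of the transcription factor Stat3, and cells of each were untreated or were treated for 2 h with IFNa (interferon alpha, which signals through Stat factors) at a dose of 1000 U/ml. With 1 array in each of the 4 groups no value has a replicate, and differences between 2 arrays are given as values. The labels do not give the design of the knockout allele, the body site of the embryos or the number of lines behind each genotype, so genotype and line of origin cannot be told apart. Levels are log2 of the authors' normalized intensity, on which the median probe of every array stood at 6.23, and detection means a deposited detection p below 0.01.

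The clusters also hold microRNA genes, and the mature sequences are shown because 2 families recur between neighbouring Hox genes in several clusters. Mir10a lies between Hoxb4 and Hoxb5, Mir10b lies within Hoxd4, Mir196a-1 lies between Hoxb9 and Hoxb13, Mir196a-2 lies between Hoxc9 and Hoxc10, and Mir196b lies between Hoxa9 and Hoxa10. In the RefSeq sequences (GRCm38.p6, 5′ to 3′), with the seed of bases 2 to 8 in capitals, the members of each family share a seed.
mmu-miR-10a-5p, chr11:96317186-96317208, plus strand: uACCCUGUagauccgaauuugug
mmu-miR-10b-5p, chr2:74726074-74726096, plus strand: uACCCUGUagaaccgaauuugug
mmu-miR-196a-5p, chr15:102973365-102973386 for the Mir196a-2 copy, plus strand: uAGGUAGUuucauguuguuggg
mmu-miR-196b-5p, chr6:52230129-52230150, minus strand: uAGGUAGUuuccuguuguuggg
No probe of the array carried the name of these microRNA genes, so only the Hox genes around them were measured. Hoxb8, a known target of miR-196 in mouse embryos, was detected on no array, with log2 levels of 6.21 and 6.08 in WT (untreated, then IFNa) and of 6.13 and 6.17 in STAT3KO.

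The promoter windows of 22 Hox genes were found in the RefSeq promoter table, as 24 windows that run from 250 bases before to 50 bases after the start. The palindromic motif TTCNNNGAA, the consensus of STAT dimers, which reads the same on both strands, occurred in 1 of the 24 windows, that of Hoxd4, against 8.3% of all 32851 windows. The core of the interferon-stimulated response element, a pair of GAAA runs with 2 bases between them, was searched on both strands and occurred in 0 of the 24 and in 3.44% of all windows. The median Hox window held 14.5 CG dinucleotides and 57.67% G and C, against 7 and 52.67% over all windows. The 250 bases before the start are shown for Hoxd4, because it holds the STAT motif, in capitals, and was lower in STAT3KO, and for Hoxa11, because it was detected in STAT3KO but not in WT. A match is a run of letters and not a measured binding site.
Hoxd4, chr2:74721728-74721977, GRCm38.p6, plus strand: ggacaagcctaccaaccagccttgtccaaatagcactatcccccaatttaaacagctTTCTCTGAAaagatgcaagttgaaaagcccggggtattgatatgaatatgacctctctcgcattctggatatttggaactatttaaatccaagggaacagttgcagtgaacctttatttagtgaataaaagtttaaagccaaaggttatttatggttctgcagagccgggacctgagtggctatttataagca
Hoxa11, chr6:52245811-52246060, GRCm38.p6, minus strand: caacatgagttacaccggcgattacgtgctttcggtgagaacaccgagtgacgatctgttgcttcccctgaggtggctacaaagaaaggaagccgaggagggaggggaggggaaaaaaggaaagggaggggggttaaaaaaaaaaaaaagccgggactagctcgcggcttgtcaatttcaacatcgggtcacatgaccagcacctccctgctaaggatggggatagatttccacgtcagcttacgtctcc

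The arrays detected between 16076 and 17524 probes. Stat3 stood at log2 levels of 10.13 and 10.39 in WT (untreated and IFNa) and at 6.94 and 6.78 in STAT3KO on the brighter of its 2 probes, in the direction of the labels. The other probe fell from 9.85 and 9.86 to 6.87 and 6.95. Both probes were still detected on both STAT3KO arrays, and the place of the 2 probes relative to the deletion was not known here. Of 14 fibroblast markers, 8 were lower and 0 higher in STAT3KO (limma), against 10.4% and 12.2% of all named genes, with a median log2 difference of -1.71. Their summed intensity was 81377 and 70626 in WT against 44436 and 50150 in STAT3KO. Thy1, a fibroblast surface glycoprotein, went from 13.49 and 13.77 to 6.07 and 6.11 (log2, not detected in STAT3KO), while the intermediate filament gene Vim stood between 14.95 and 15.27 on all 4 arrays. No array detected any of the 3 blood markers or 3 skeletal muscle markers with a probe, nor Epcam and Cdh1 of epithelium or Pecam1 of endothelium. All 4 arrays did detect Krt19 of epithelium, at 9.57 and 9.08 in WT and 8.87 and 8.50 in STAT3KO, and Kdr of endothelium, between 6.85 and 6.92. On the brightest probe, Emcn of endothelium and Cldn4 of epithelium were detected on both STAT3KO arrays and neither WT array, and Emcn passed the test (limma difference 0.42). A second Emcn probe showed the reverse, detected on both WT arrays and neither STAT3KO array (limma difference -0.16). No direction is therefore read for Emcn. Of 5 neural markers, Nes was lower (limma difference -0.65) and Gfap higher (0.33) in STAT3KO. The Gfap probe was detected on 1 STAT3KO array only, and a second Gfap probe, detected on no array, differed by 0.01. The part of this difference in fibroblast markers in the Hox results was not tested. In RNA of a whole culture, fewer cells that express a gene and less of its RNA per cell cannot be told apart.

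STAT3KO used fewer Hox genes than WT, most of them also used by WT. A gene was counted for a genotype when at least 1 of its probes was detected on both arrays of that genotype. By this count WT used 19 of the 37 genes and STAT3KO used 7, of which Hoxa5, Hoxa7, Hoxb1, Hoxb3 and Hoxb4 were counted in both. By probe, both WT arrays detected 20 of the 52 Hox probes, against 15251 of all 46632 probes. Both STAT3KO arrays detected 8 of the 52, against 15397 of all 46632 probes. In WT the Hoxb cluster was on from Hoxb1 through Hoxb7 without a gap, then skipped Hoxb8 and ended with Hoxb9. The Hoxc cluster of WT was on at Hoxc4, Hoxc6, Hoxc8, Hoxc9, Hoxc10 and Hoxc13, the Hoxd cluster at Hoxd4, Hoxd8 and Hoxd9, and the Hoxa cluster at Hoxa5 and Hoxa7 alone. STAT3KO showed the opposite weighting, with 4 genes of the Hoxa cluster (Hoxa5, Hoxa7, Hoxa9 and Hoxa11), 3 of Hoxb and 0 of the 9 Hoxc and 9 Hoxd genes. By paralog number, WT used 3 of 7 anterior genes (1 to 3), 11 of 15 central genes (4 to 8) and 5 of 15 posterior genes (9 to 13), against 2, 3 and 2 in STAT3KO.

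**Figure D1:**
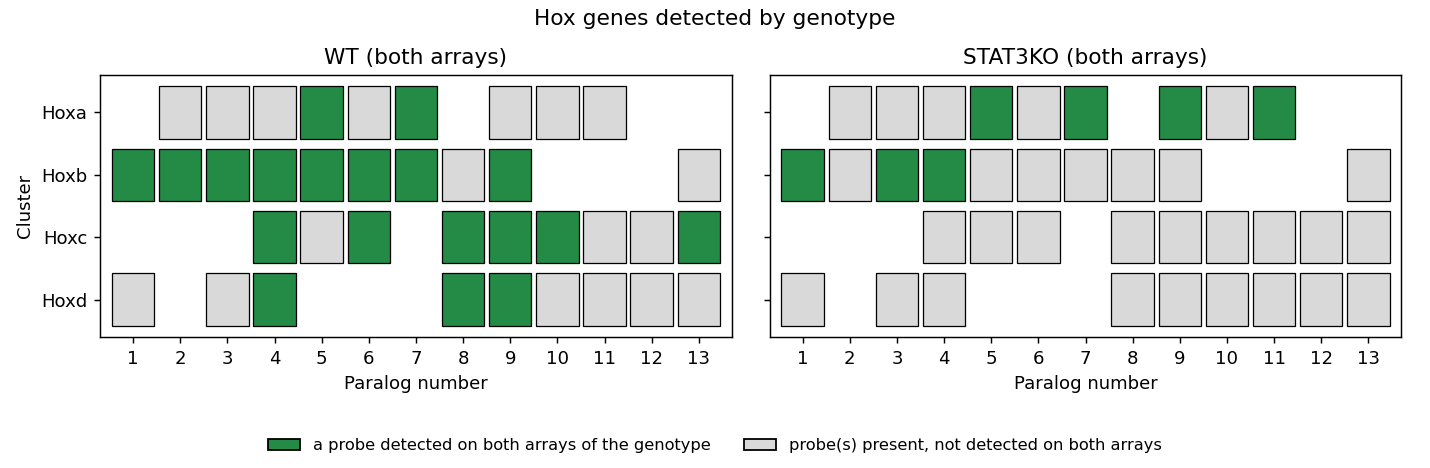
Each box is a Hox gene, placed by cluster (rows) and paralog number (columns), for WT (left) and STAT3KO (right), with genes that had a probe shown. Green boxes had a probe detected on both arrays of the genotype, which holds for 19 genes in WT and 7 in STAT3KO, and grey boxes had probes without such detection.

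Counted by probe, 13 of 52 were detected on both WT arrays and on neither STAT3KO array, a class that held 1.4% of all probes, and 2 were detected on both STAT3KO arrays and neither WT array, against 1.65% of all probes. A further 6 Hox probes were detected on all 4 arrays, against 29.8% of all probes, 5 on some other combination, and 26 on none, against 57.8% of all probes. The 26 probes detected on no array had log2 levels from 5.68 to 6.40, around the median of all probes. Values of different probes are not on one scale, so position is described by detection and by differences within a probe.

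Tested over both treatments with limma, 15 of 52 Hox probes were lower in STAT3KO and 7 were higher at an adjusted p under 0.05, where 6.56% of all probes were lower and 7.36% higher. With the brightest probe standing for each gene, 15 of 37 genes were lower and 5 higher, against 10.4% and 12.2% of all named genes. The median log2 difference of the 52 probes was -0.02, against -0.0010 over all probes. At 2-fold in both treatments, 12 probes were lower and 4 higher, against 1.51% and 1.44% of all probes. All 20 probes that were detected on at least 1 array and passed the test kept their direction without and with IFNa. The test is on the mean of the same 2 differences, so a probe that passes can hardly change direction. These p-values rest on 1 residual and 17.7 prior degrees of freedom and hold no spread between replicate cultures. With a normexp background correction and quantile normalization together, the fold difference was over 1.5 times larger in 19 of the 20, and the ratio of the folds ran from 1.48 to 4.63. That setting started from deposited intensities in which WT untreated alone was already normalized.

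**Figure D2:**
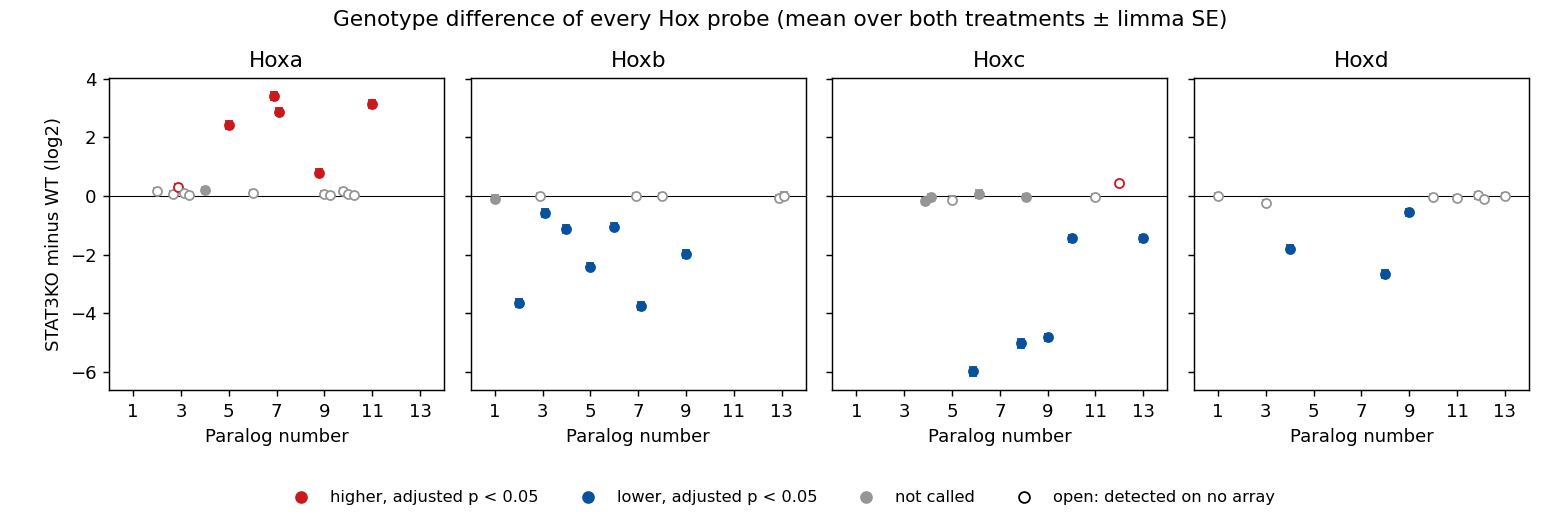
STAT3KO minus WT on the log2 scale (mean over both treatments, bars are the limma SE, often smaller than the symbol) for all 52 Hox probes against paralog number, 1 panel per cluster. Detected probes that passed the test lie above 0 in Hoxa and below 0 in Hoxb, Hoxc and Hoxd, and the open symbols, detected on no array, lie between -0.24 and 0.43.

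The Hoxc cluster, on chromosome 15, was on in WT and at or near background in STAT3KO. Hoxc6, a gene of the neck-to-thorax transition, stood at 11.90 (untreated) and 11.82 (IFNa) in WT and at 5.60 and 6.15 in STAT3KO (log2). Both WT arrays were high and both STAT3KO arrays were at background, and the level in WT was at least 43.3-fold higher over both treatments. Where a probe was not detected, the fold is a lower bound, computed against the lowest detected value of that array or the probe's own value if higher. The limma difference was -5.98 ± 0.16 (SE, adjusted p = 6.87e-16). Hoxc8, which patterns thoracic vertebrae and forelimb motor neurons, stood at 11.08, 10.99, 5.90 and 6.10 in the same order, at least 24.4-fold higher in WT (limma difference -5.04 ± 0.14). Hoxc9, which sets the thoracic identity of motor neurons, stood at 10.92, 10.83, 6.08 and 6.02, at least 21.9-fold higher in WT (limma difference -4.83 ± 0.13). These 3 genes are adjacent on the chromosome.

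The posterior Hoxc genes were also lower in STAT3KO. Hoxc10, a gene of lumbar motor neurons, stood at 7.81 and 7.73 in WT and at 6.23 and 6.43 in STAT3KO, at least 2.54-fold higher in WT (limma adjusted p = 2.90e-08). Hoxc13, needed for hair and nail formation, stood at 7.73 and 7.58 in WT and 6.26 and 6.18 in STAT3KO, at least 2.35-fold higher in WT (limma adjusted p = 1.50e-08). Between these, Hoxc11 was at background on all 4 arrays. Hoxc12 passed the test as higher in STAT3KO (limma difference 0.43, adjusted p = 0.00262) with levels from 5.68 to 6.29, but it was detected on no array, so no change in expression is read from it. Hoxc4 stood at 6.56 and 6.57 in WT and 6.36 and 6.43 in STAT3KO on its brighter probe, which was detected in WT only and did not pass the test (limma adjusted p = 0.486).

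**Figure D3:**
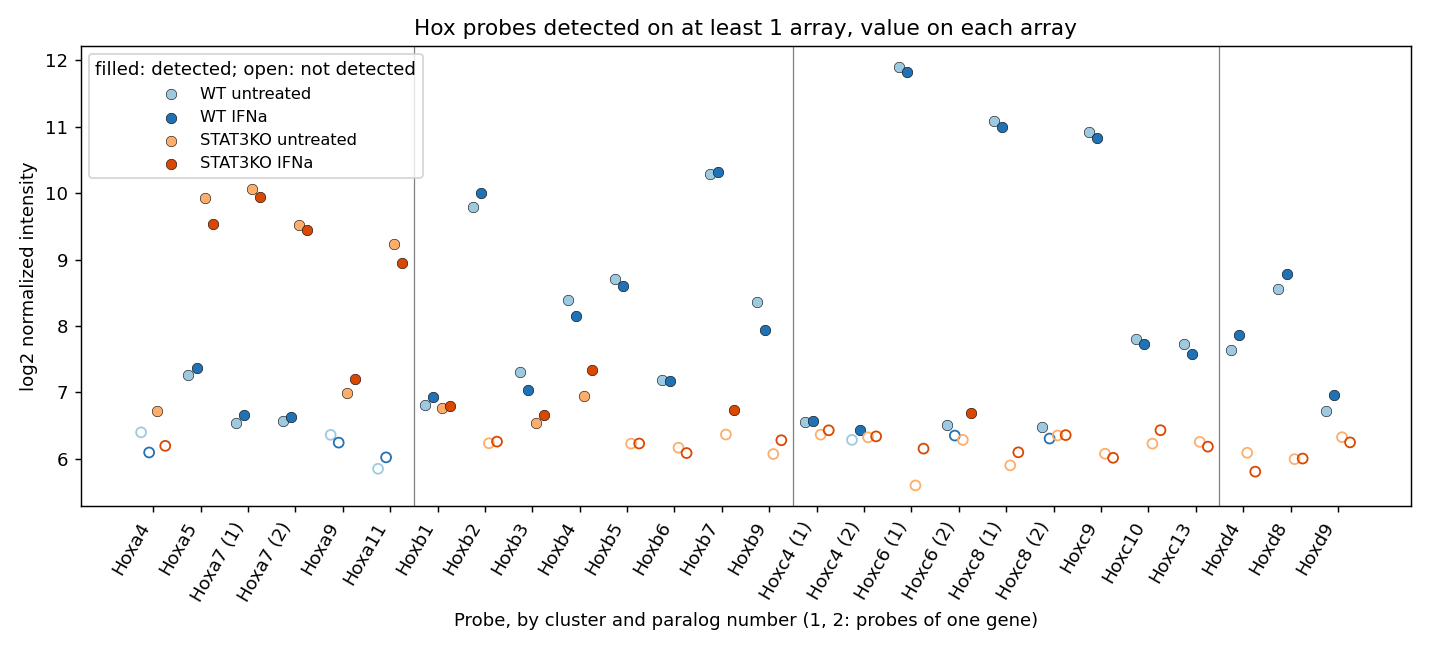
The log2 normalized intensity (vertical axis) of the 26 Hox probes detected on at least 1 array, with 1 point for each of the 4 arrays, filled where detected and open where not. Hoxa5, Hoxa7, Hoxa9 and Hoxa11 are higher on both STAT3KO arrays, and the bright probes of Hoxb2, Hoxb5, Hoxb7, Hoxc6, Hoxc8, Hoxc9 and Hoxd8 are higher on both WT arrays.

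In the Hoxb cluster, on chromosome 11, 7 of 10 genes were lower in STAT3KO, by very different amounts. Hoxb7, an axial gene also expressed in many tumours, stood at 10.29 and 10.32 in WT and at 6.37 and 6.74 in STAT3KO (log2), with a limma difference of -3.75 ± 0.14 (SE, adjusted p = 1.35e-13). It was not detected in STAT3KO untreated, where WT was at least 15.0-fold higher, and was detected in STAT3KO IFNa, where WT was 11.9-fold higher. Hoxb2, which acts in the hindbrain and facial motor neurons, stood at 9.79 and 10.004 in WT and at 6.23 and 6.26 in STAT3KO, at least 11.1-fold higher in WT (limma difference -3.65 ± 0.13). Hoxb5 was at least 4.68-fold, Hoxb9 at least 3.32-fold and Hoxb6 at least 1.69-fold higher in WT, and STAT3KO detected none of them.

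The 3 genes Hoxb1, Hoxb3 and Hoxb4, the low-numbered end of the cluster apart from Hoxb2, were detected in STAT3KO. Hoxb4, known for its effect on blood stem cell expansion, stood at 8.39 and 8.15 in WT and 6.94 and 7.34 in STAT3KO, detected on all 4 arrays, with a limma difference of -1.13 ± 0.15 (SE, adjusted p = 8.72e-06). Hoxb3, a hindbrain and pharyngeal gene, stood at 7.31 and 7.04 in WT and 6.53 and 6.67 in STAT3KO, with a limma difference of -0.58 ± 0.12 (SE, adjusted p = 0.00224). For both, the WT levels lay above the STAT3KO levels, which adds nothing to the test, since it used the same arrays. A second Hoxb3 probe, detected on no array, had a limma difference of 0.005, so the Hoxb3 values rest on 1 of 2 probes. Hoxb1, which specifies a single hindbrain segment, stood at 6.81, 6.93, 6.76 and 6.79, with a limma difference of -0.09 and a 95% interval from -0.33 to 0.15. Neither Hoxb8 nor the distant posterior gene Hoxb13 was detected on any array.

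The Hoxd cluster, on chromosome 2, was active in WT at 3 of its 9 genes, and all 3 were lower in STAT3KO. Hoxd8 stood at 8.55 and 8.78 in WT and at 6.00 and 6.00 in STAT3KO (log2), at least 4.72-fold higher in WT (limma difference -2.66 ± 0.12, SE). Hoxd4, a retinoid-responsive gene of the neck vertebrae, stood at 7.64 and 7.86 in WT and at 6.09 and 5.81 in STAT3KO, at least 2.50-fold higher in WT (limma difference -1.80 ± 0.13). Its upstream sequence is the one with the STAT motif shown above, and any part of the motif in this difference was not tested. Hoxd9, a gene of the limb and lumbar spine, stood at 6.72 and 6.96 in WT and at 6.33 and 6.25 in STAT3KO, at least 1.34-fold higher in WT (limma adjusted p = 0.00184). The distal limb genes Hoxd10, Hoxd11, Hoxd12 and Hoxd13 were detected on no array, as were Hoxd1 and Hoxd3.

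The Hoxa cluster, on chromosome 6, went the other way. Hoxa11, required for the forearm and the uterus, stood at 5.85 (untreated) and 6.02 (IFNa) in WT and at 9.24 and 8.94 in STAT3KO (log2). WT did not detect it, and STAT3KO was at least 6.27-fold higher over both treatments, with a limma difference of 3.15 ± 0.13 (SE, adjusted p = 9.71e-13). Hoxa7, a thoracic gene, was detected on all 4 arrays by both of its probes. The brighter stood at 6.53 and 6.66 in WT and at 10.07 and 9.94 in STAT3KO, an 11.6-fold difference without IFNa and 9.70-fold with it, and the other gave 7.70-fold and 7.03-fold. Hoxa5, needed for lung development, stood at 7.27 and 7.36 in WT and at 9.92 and 9.54 in STAT3KO, 6.29-fold higher without IFNa and 4.53-fold with it (limma adjusted p = 1.72e-10). Hoxa9, a partner of Meis1 in leukaemia, stood at 6.36 and 6.24 in WT and at 6.99 and 7.20 in STAT3KO, at least 1.57-fold higher there (limma adjusted p = 5.62e-05).

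Between the Hoxa genes detected in STAT3KO lay genes whose probes were not. Hoxa6, which lies between Hoxa5 and Hoxa7, was detected on no array, with levels from 6.08 to 6.28. Hoxa10, which lies between Hoxa9 and Hoxa11, was detected on no array by any of its 3 probes. Hoxa2 and Hoxa3 were also at background, though 1 of 4 Hoxa3 probes passed the test (limma difference 0.32, adjusted p = 0.0185) without being detected anywhere. Hoxa4 was detected in STAT3KO untreated only, at 6.71, against 6.20 with IFNa and 6.40 and 6.10 in WT, and did not pass the test (limma adjusted p = 0.319).

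Paralogs of 1 number, which descend from a single ancestral gene and have closely related homeodomains, differed between the genotypes in opposite directions in some groups and in the same direction in others. In group 9, which has a member in every cluster, the limma log2 difference was 0.79 for Hoxa9, -1.98 for Hoxb9, -4.83 for Hoxc9 and -0.56 for Hoxd9, and each passed the test. In group 7 the differences were 3.41 for Hoxa7 and -3.75 for Hoxb7, and in group 5 they were 2.42 for Hoxa5 and -2.42 for Hoxb5, with Hoxc5 at background. All detected paralogs that passed the test were lower in STAT3KO in group 4 (Hoxb4 at -1.13 and Hoxd4 at -1.80), group 6 (Hoxb6 at -1.05 and Hoxc6 at -5.98) and group 8 (Hoxc8 at -5.04 and Hoxd8 at -2.66). Group 11 was detected through Hoxa11 alone. Across genes within a cluster, Spearman's rho between paralog number and the genotype difference was 0.55 in Hoxa (9 genes), 0.20 in Hoxb (10 genes), 0.30 in Hoxc (9 genes) and 0.37 in Hoxd (9 genes), a description of points that share the same 4 arrays. These counts include genes detected on no array, 4 in Hoxa, 2 in Hoxb, 3 in Hoxc and 6 in Hoxd.

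Of the 11 Hox genes with more than 1 probe, 7 had a probe that passed the genotype test and 6 of these also had a probe that did not, against 86.5% of all multi-probe genes with a called probe. The second probe of Hoxc6 stood at 6.51 and 6.35 in WT and at 6.29 and 6.70 in STAT3KO, and was detected in untreated WT and in IFNa-treated STAT3KO. Its limma difference was 0.06 (adjusted p = 0.924). The second probe of Hoxc8 stood between 6.31 and 6.47 and was detected in WT untreated only. Those of Hoxb7 and Hoxb3 were detected on no array. For Hoxa9, 2 of 3 probes were detected on no array. The weak probes of these genes carry the same gene symbol, and the place of each in its transcript was not known here. Hoxa7 was the multi-probe Hox gene on which all probes passed, in the same direction.

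No Hox gene passed the test for a response to 2 h of IFNa. With limma, 0 of 52 Hox probes rose or fell over both genotypes at an adjusted p under 0.05, where 0.249% of all probes rose, 0.0172% fell and 0.266% did either. At an unadjusted p under 0.05 there were 3, Hoxa4 at -0.41, 1 Hoxa9 probe at -0.21 and Hoxd10 at 0.21 on the log2 scale, against 3.29% of all probes. Over the 20 Hox probes detected on both WT arrays, the WT response ran from -0.43 for Hoxb9 to 0.24 for Hoxd9, with a median of -0.0016 and 0 past 2-fold. Over the 8 probes detected on both STAT3KO arrays it ran from -0.38 for Hoxa5 to 0.39 for Hoxb4. Of the 6 probes detected on all 4 arrays, 5 had responses of opposite sign in the 2 genotypes, against 56.5% of all such probes. For comparison, the 5th and 95th percentiles of all detected probes were -0.32 and 0.27 in WT and -0.32 and 0.33 in STAT3KO. For the brighter probe of Hoxa7, detected on all 4 arrays, the mean response was -0.01, with a 95% interval from -0.29 to 0.28.

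**Figure D4:**
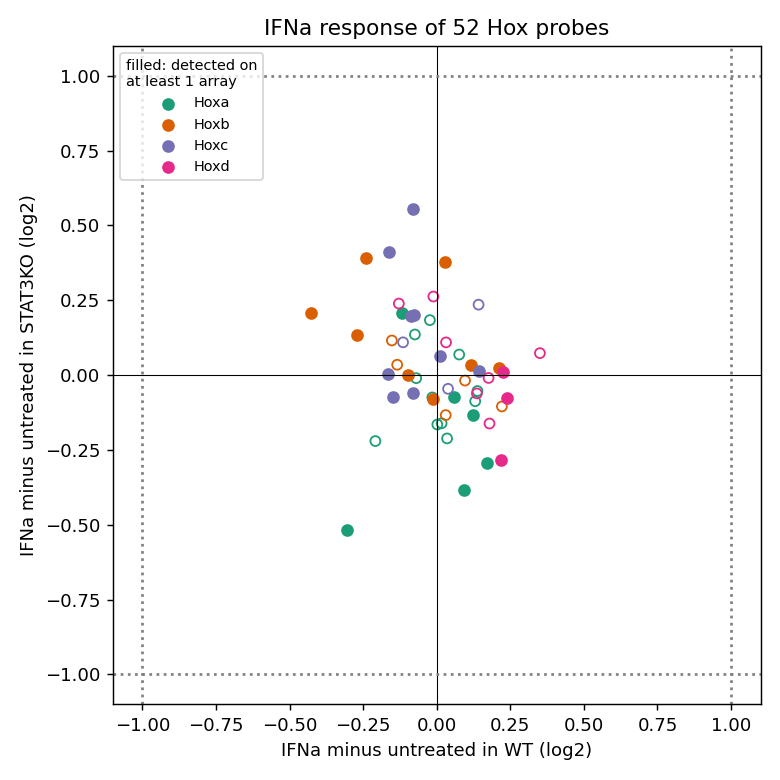
The log2 response to IFNa in WT (horizontal) and in STAT3KO (vertical) of all 52 Hox probes, coloured by cluster, filled where a probe was detected on at least 1 array. Dotted lines mark 2-fold, and no point lies beyond them in either genotype.

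Hox proteins bind DNA with partners of the TALE homeodomain class, and 7 of 9 listed partners had a probe. Of these, 3 were higher and 1 lower in STAT3KO (limma, brightest probe), against 12.2% and 10.4% of all named genes, with a median log2 difference of 0.22 against 0.01 over all named genes. Pbx3 stood at 7.51 and 7.53 in WT and 8.75 and 8.69 in STAT3KO, a limma difference of 1.20 ± 0.13 (SE, adjusted p = 9.73e-07). Meis2 differed by 0.86 and Meis1 by 0.69 in the same direction, and a second detected Meis1 probe also passed the test. Pknox1 was lower by -0.49 (adjusted p = 0.0145), and Pbx2 differed by 0.22 (adjusted p = 0.396).

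Polycomb proteins keep Hox genes silent and Trithorax proteins keep them active. Of 29 listed regulators, 25 had a probe, and 5 were higher and 2 lower in STAT3KO (limma), against the same 12.2% and 10.4%, with a median log2 difference of 0.05. The largest differences among detected genes were 1.13 for Phc1 and 0.87 for Cbx8, both of Polycomb complex 1, 0.62 for the histone methyltransferase Kmt2b, -0.60 for Ash2l, a subunit of the same methyltransferase complexes, and 0.47 for Rnf2, the catalytic Polycomb ubiquitin ligase. A second Kmt2b probe was not detected, and a second Ash2l probe did not pass the test (adjusted p = 0.0686). On the brightest probe, Eed stood between 10.57 and 10.86 and the boundary factor Ctcf between 10.59 and 10.69 on all 4 arrays, and neither passed the test. A second Eed probe did pass as higher in STAT3KO (limma difference 0.39), but was detected on 1 array.

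Genes flanking the clusters were read in RefSeq order, up to 3 named protein-coding genes on each side. None of the 6 genes beside Hoxc or the 4 with a probe beside Hoxb passed the limma test, and the largest log2 difference among them was 0.34 for Atp5g1 (adjusted p = 0.217). Beside Hoxa, 3 of 6 genes were higher in STAT3KO on the brightest probe, against 12.2% of all named genes. Snx10 was not among them (limma difference 0.40), though its second probe, detected on all 4 arrays, passed the test (0.58). Hibadh, a valine-degradation enzyme, stood at 11.46 and 11.52 in WT and 12.78 and 12.71 in STAT3KO (limma difference 1.26 ± 0.15, SE), its neighbour Tax1bp1 was 0.90 higher, and Skap2 was 0.35 higher but detected on 1 array. Evx1, which lies between Hoxa13 and Hibadh, was detected on no array. Beside Hoxd, Lnpk was lower in STAT3KO at -1.07 ± 0.13 (limma SE, adjusted p = 4.61e-06), though its second detected probe did not pass the test, and the other 5 genes did not pass.

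**Figure D5:**
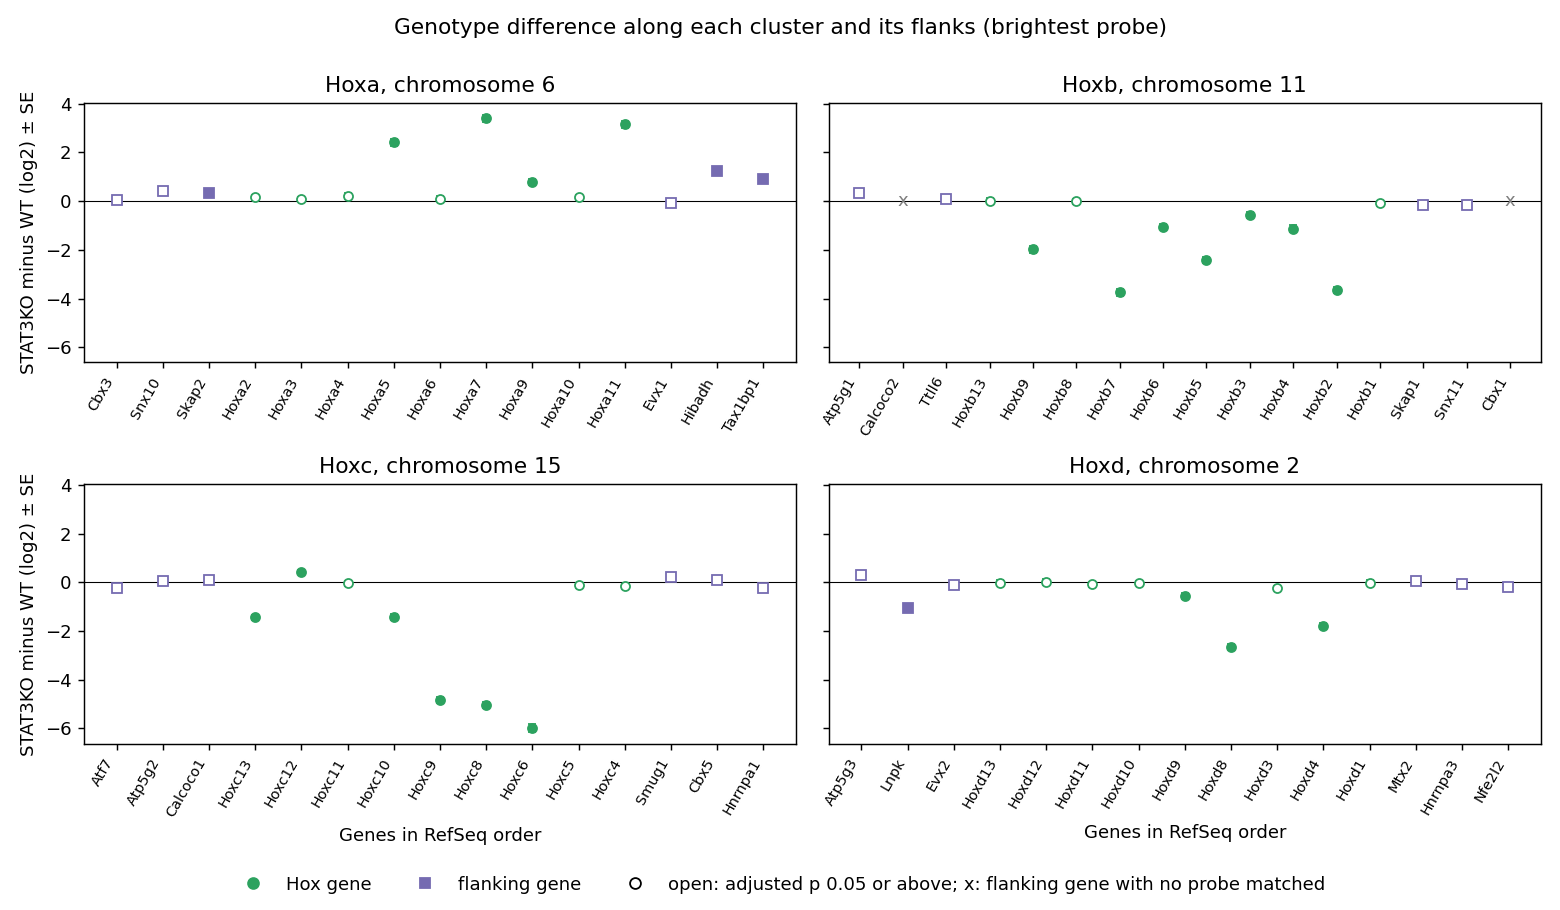
STAT3KO minus WT on the log2 scale (brightest probe, bars are the limma SE) for Hox genes (circles) and flanking genes (squares) in RefSeq order along each chromosome, filled where the adjusted p was under 0.05. The 6 genes beside Hoxc have open squares near 0, while Hoxc6, Hoxc8 and Hoxc9 lie between -5.98 and -4.83. Crosses mark flanking genes with no matched probe, and Hox genes with a probe are drawn.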

How the data were processed

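RNA of 4 samples, 1 for each combination of genotype and treatment, was hybridised to Illumina mouse bead arrays. BeadStudio 3.2.3 was used, per the submitters' processing notes. The authors deposited a normalized intensity for each probe and array on a linear scale, by a method not given in the sources used here, together with a detection score, from which the detection p was taken as 1 minus the score. Intensities before normalization were also deposited for 3 arrays. Per the file headers, that column holds normalized values for WT untreated (no probe differed from the normalized values), so the normalized table, which treats all 4 arrays alike, was the main source, with no background subtraction. Log2 values of all 46632 probes were fitted with limma 3.58.1 in R 4.3.3 (additive terms for genotype and treatment, a trended prior variance, Benjamini-Hochberg adjustment across the whole array, adjusted p under 0.05). The fit was tested on simulated arrays. The members, gene lists and naming rule (every Hox gene, and up to 5 genes of each partner list by size of the genotype difference) were chosen with earlier results of these data known. Member symbols are those of the platform table, and list symbols were updated through the Entrez ID. Sequences are from RefSeq (GRCm38.p6). Alternatives were normexp background correction (offset 16) with quantile normalization, scaling to the 75th percentile, detected probes only, detection p under 0.05, 1 term in the fit, no trend, and the mean of a gene's probes. The normexp and scaling settings started from the deposited intensities, in which WT untreated was already normalized and the other 3 arrays were not. Precision is limited by having 4 arrays. A result that needs an item withheld from this work is not reported here.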

Additional observations from a re-analysis of the deposited data

Results flagged for a closer look

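Of the 6 Hox probes detected on all 4 arrays, 5 had responses to IFNa of opposite sign in the 2 genotypes, with 1 array on each side, and the difference was not tested. Among all probes detected on all 4 arrays, 56.5% did the same. Hoxb4 fell by 0.24 in WT and stood 0.39 higher with IFNa in STAT3KO, a log2 difference of responses of 0.63, and Hoxb3 gave 0.40. The difference was -0.47 for Hoxa5, and -0.26 and -0.13 for the 2 probes of Hoxa7.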

How the results depend on the processing

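The counts of lower Hox probes and genes, the counts at 2-fold and the counts of detected genes stayed within 1.5 times their value under the alternatives run for each. The normexp and scaling settings started from intensities in which WT untreated alone was already normalized, so they do not treat all arrays alike. With scaling to the 75th percentile, the higher Hox probes were 4 in place of 7 and the higher genes 3 in place of 5, while over all probes the higher calls were 476 in place of 3430 and the lower ones 550 in place of 3057. In the same setting Hoxa9 (0.94), Hoxb3 (-0.73), Hoxb4 (-1.26) and Hoxd9 (-0.71) no longer passed the test, though each difference was larger than in the fit reported, and the second probe of Hoxc6 turned from 0.06 to -0.011, neither called. Over the 26 detected probes, that setting changed 5 genotype results and the others run changed 0 calls. At a detection p under 0.05, STAT3KO counted 9 genes, with Hoxb7 and Hoxc4 added, and WT 19. No Hox probe passed the IFNa test in any setting. No paired analysis was possible because each group has 1 array and no replicate numbers (the genotype test already compares arrays within each treatment). Arrays without replicates and a background near a log2 level of 6.23 limit what can be seen of dim probes.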

Other observations

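Few of the other transcripts of the clusters had a probe. Hottip, at the posterior end of Hoxa, and Hoxd3os1, within Hoxd, were detected on no array by the probe used. The transcript 5730596B20Rik, within Hoxa, was detected on all 4 arrays at log2 levels from 6.58 to 6.88, with a genotype difference of 0.00. Gm53, within Hoxb, was detected in WT IFNa only and was lower in STAT3KO (limma difference -0.49, adjusted p = 0.00128). Outside the clusters, the pluripotency gene Nanog stood at 6.35 and 6.59 in WT and at 7.50 and 7.41 in STAT3KO on its brightest probe. The other Nanog probes were detected on no array, nor were Pou5f1, Zfp42 and Lin28a.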
